A study of Mus musculus with 11 samples.

Results

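The genes described here act on the shape, turnover and renewal of mitochondria: Mfn1, Mfn2 and Opa1 for fusion, Dnm1l, Fis1 and Mff for fission, Pink1, Bnip3 and Fundc1 for mitophagy, and Ppargc1a for biogenesis. They were taken by symbol from a table of 36826 genes measured by RNA sequencing of mouse hippocampus, where all 10 symbols had 1 row each, and all 10 were among the 14428 genes tested. Wild-type C57BL/6J animals (WT) gave 4 libraries. APP/PS1 animals, whose transgenes lead to amyloid deposition, gave 3 after sham treatment (sham) and 4 after treatment with a 0.4 T rotating field (RMF). The labels do not name the line, its promoter or the sex of the mice. Field or sham exposure was given on 5 days per week for 12 months, at 3 h per day between 2 and 11 months of age and 6 h per day until 14 months, and WT mice were of the same age. The labels do not say whether WT mice were handled in the apparatus. They also leave unsaid whether every library came from its own animal, and pooling of RNA is mentioned in the protocol. The p-values therefore measure the scatter among these libraries and no more, and that scatter may be technical.

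Mitochondria fuse and divide throughout the life of a cell. The mitofusins MFN1 and MFN2 join outer membranes, OPA1 joins inner membranes and keeps cristae closed, and the dynamin-related GTPase encoded by Dnm1l constricts the organelle after it is recruited by adaptors such as MFF and FIS1. Damaged mitochondria are marked for autophagy by the kinase PINK1, or through the outer-membrane receptors BNIP3 and FUNDC1, and PGC-1alpha, the coactivator encoded by Ppargc1a, drives the making of new mitochondria. In neurons, which send mitochondria far along axons and dendrites, these processes supply synapses, and they have been studied widely in amyloid models.

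Promoter sequences are shown for Opa1, Pink1 and Fis1 because the levels of these genes moved against or with each other from library to library, as described further on. RefSeq promoter windows on GRCm38.p6 were found for all 10 genes, in 15 windows, and the 250 bases before each annotated start were searched on both strands for 4 motifs. Capitals mark matches to the core site of nuclear respiratory factor 1 (NRF1), searched as GCGCA and GCGC with any 1 base between them, in Opa1 and Pink1, and to CCGGAAG, an ETS site of the kind bound by GABP, in Fis1. The windows are chr16:29579084-29579333 on the + strand for Opa1, chr4:138326297-138326546 on the - strand for Pink1 and chr5:136953025-136953274 on the + strand for Fis1, each written 5′ to 3′ towards the start.
Opa1: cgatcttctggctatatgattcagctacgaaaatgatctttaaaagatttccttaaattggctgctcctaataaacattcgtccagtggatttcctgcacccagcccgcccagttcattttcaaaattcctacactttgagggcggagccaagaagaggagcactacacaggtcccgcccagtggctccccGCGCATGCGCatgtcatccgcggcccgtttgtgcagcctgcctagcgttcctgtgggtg
Pink1: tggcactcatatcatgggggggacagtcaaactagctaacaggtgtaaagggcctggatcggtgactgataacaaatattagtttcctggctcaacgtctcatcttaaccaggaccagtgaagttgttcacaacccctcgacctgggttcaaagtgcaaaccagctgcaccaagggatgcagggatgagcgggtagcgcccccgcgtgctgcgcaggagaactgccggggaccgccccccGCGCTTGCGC
Fis1: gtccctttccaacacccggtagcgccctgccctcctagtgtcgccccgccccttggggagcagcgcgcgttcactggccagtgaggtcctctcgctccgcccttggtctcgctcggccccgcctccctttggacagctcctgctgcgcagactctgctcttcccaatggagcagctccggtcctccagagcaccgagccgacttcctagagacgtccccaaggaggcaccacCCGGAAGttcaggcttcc
The match began 59 bases before the start in Opa1, 10 bases before it in Pink1 and 18 bases before it in Fis1. The NRF1 letters were in 3 of the 15 windows, those of Opa1, Pink1 and Bnip3, and in 3.74% of all 32851 promoter windows. The GABP letters were in 2 windows, of Fis1 and Mfn1, against 6.91% of all windows. A further Fis1 window, chr5:136961827-136962076 on the + strand and not shown here, had 0 matches to the 4 motifs. An E-box (CACGTG) was in 1 member window, that of Bnip3, against 6.02% of all windows, and overlapped no other match, and the cAMP response element (TGACGTCA) was in 0 of the 15, against 1.55%. A match describes the letters of the window and not the binding of a factor.

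Depth was even, with between 68124548 and 70786786 counts per library. App, the gene of the amyloid precursor protein that the transgene adds to, averaged 1592 ± 32.5 CPM (read counts scaled to the size of the library, SD) over the 4 WT libraries, 3417 ± 396 over the 3 sham and 3387 ± 159 over the 4 RMF libraries, so the genotype labels matched the data (sham against WT adjusted p = 0.000116, edgeR). The labels name the cell type as neurons, but the summed CPM of 8 markers reached 6092 to 7923 for neurons, 3349.7 to 4949 for astrocytes, 2502 to 9648 for oligodendrocytes and 284 to 569 for microglia, with 0 markers of these lists at 0 in every library, so the samples held the RNA of whole tissue. Markers of microglia and astrocytes separated by genotype. Microglial sums were 284 to 350.1 CPM in WT and 418 to 569 CPM in APP/PS1 libraries, and astrocyte sums 3349.7 to 4058 and 4437 to 4949 CPM. Oligodendrocyte sums overlapped, at 2502 to 8210.3 CPM in WT, 3992 to 8311 in sham and 4744 to 9648 in RMF. Neuron sums did not overlap between sham, at 7065 to 7569.7 CPM, and RMF, at 6092 to 6726, and WT overlapped both, at 6544 to 7923. Sums of astrocytes, oligodendrocytes and microglia overlapped between sham and RMF. The part of the neuron sums in the levels below was not tested. In such tissue, fewer cells of a type and less RNA per cell cannot be told apart. Libraries WT 3 and sham 4 stood apart: 8 neocortex markers summed to 1084 CPM in WT 3 and 609 in sham 4 against 323 to 508 elsewhere, 8 dentate granule markers to 319.8 CPM in WT 3 against 514 to 726, and the mitochondrial genome supplied 9.53% of counts of sham 4 against 5.76% to 7.39% of the others. Markers of some other organs also separated by genotype. Sums of 8 skeletal muscle markers were 44.2 to 66.3 CPM in WT and 4.5 to 6.75 in APP/PS1 libraries. Those of 6 kidney markers were 0.228 to 2.22 and 16.9 to 36.7 CPM, and of 6 intestine markers 0 to 0.0726 and 13.2 to 32.4 CPM. Sums of 8 liver markers overlapped, at 141 to 542 CPM in WT, 511 to 586 in sham and 337 to 748 in RMF. The liver list includes Ttr, which was also in a list of 7 choroid plexus markers. Sums of the choroid plexus list were 247 CPM in WT 1 and 21.7 in WT 3, where the liver sums were 542 and 141. Whether the liver sums reflect liver transcripts therefore cannot be told from them. The source of these transcripts and their part in the levels below were not tested.

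None of the 10 genes passed the test in any comparison between groups. For sham against WT, the comparison of genotypes with no field applied, edgeR called 0 of 10 at an adjusted p below 0.05, where 0.929% of all genes tested were called, 0.846% as higher and 0.0832% as lower. Unadjusted p lay below 0.05 for 1 member, Fis1, and for 13.2% of all genes. For RMF against sham, which asks what the field changed, edgeR called 0 of 10 and 0% of all genes, and unadjusted p lay below 0.05 for 1 member, Dnm1l, and for 6.89% of all genes. For RMF against WT it called 0 of 10 with 0 at the unadjusted threshold, where 1.19% of all genes were called (1.11% higher and 0.0832% lower) and 8.4% lay below the unadjusted threshold. For both APP/PS1 groups averaged against WT it called 0 of 10, with Fis1 at the unadjusted threshold, where 1.43% of all genes were called (1.3% higher and 0.125% lower) and 12% lay below the unadjusted threshold. DESeq2 and limma on FPKM also called 0 members in each of the 4 comparisons, and DESeq2 placed 1, 1, 0 and 1 members below an unadjusted p of 0.05. The comparisons share libraries and are therefore not independent of each other.

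The median log2 difference of the members was -0.03 in sham relative to WT, 0.02 in RMF relative to sham and -0.03 in RMF relative to WT, beside medians over all tested genes that rounded to 0. Of the 10, 4 were higher and 6 lower in sham than in WT, and 3 were higher and 7 lower in RMF than in WT. The intervals below rest on the scatter among these libraries, which may be technical, and do not bound the difference between mice of the groups. The 95% confidence interval of Mfn2 ran from 0.892- to 1.11-fold of WT in sham and from 0.92- to 1.15-fold of sham in RMF. The widest was that of Ppargc1a, from 0.894- to 1.44-fold of WT in sham and from 0.659- to 1.06-fold of sham in RMF.

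**Figure D1:**
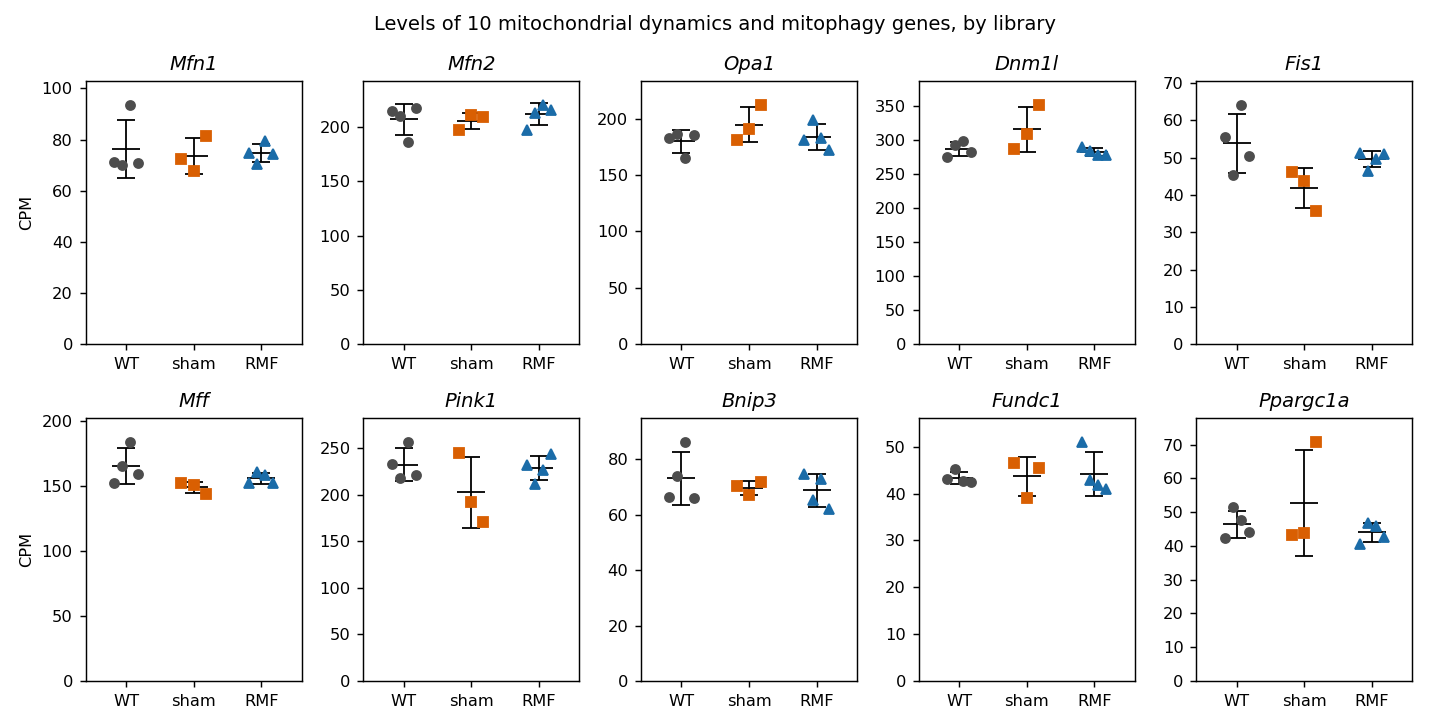
CPM of each gene in every library of WT (circles), sham (squares) and RMF (triangles), with the group mean and SD as bars and each axis starting at 0. The highest Mfn1 point is WT 3 at 93.5 CPM, and sham 4 is the highest Ppargc1a point at 70.9 CPM and the lowest Fis1 point at 35.8 CPM.

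**Figure D2:**
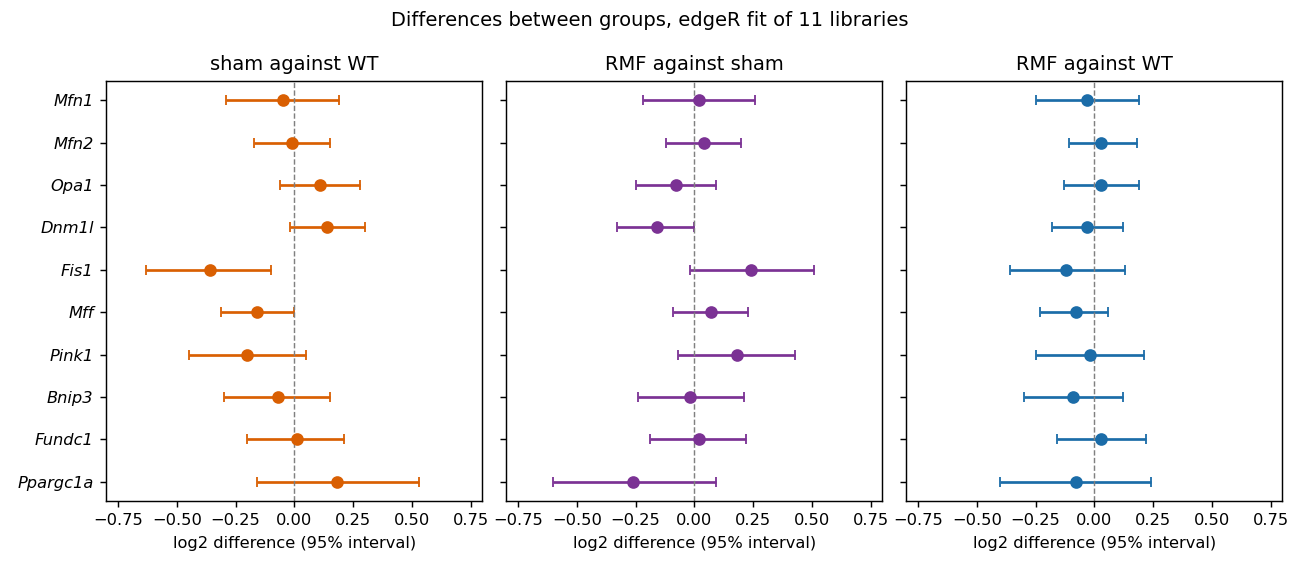
Log2 differences with 95% confidence intervals from the edgeR fit, for each gene in the 3 comparisons between groups. The interval of Fis1 in sham against WT runs from -0.63 to -0.10, and every interval in RMF against WT includes 0.

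Per transcript length, the kinase gene Pink1 was the most abundant of the set and the coactivator gene Ppargc1a the least. Over 11 libraries Pink1 averaged 80.1 FPKM (the authors' values, which scale fragments by transcript length and library size), Dnm1l 53.9, Mfn2 38.4, Bnip3 29.9, Fis1 27.5, Opa1 22.6, Fundc1 17.8, Mff 15.5, Mfn1 11.8 and Ppargc1a 6.85, a span of 11.7-fold. This order of neighbours held in all 11 libraries for Dnm1l over Mfn2, Opa1 over Fundc1, Mff over Mfn1 and Mfn1 over Ppargc1a. It held in 8 of 11 for Bnip3 over Fis1, whose levels did not separate. Sham 4 was the exception for Pink1 over Dnm1l (57.5 against 60.7 FPKM) and for Fis1 over Opa1 (18.8 against 24.2 FPKM), and WT 3 for Mfn2 over Bnip3 (35.1 against 37.5 FPKM) and Fundc1 over Mff (17.8 against 18.6 FPKM).

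Among the fusion genes, Mfn2 (ENSMUSG00000029020, chromosome 4, 147958056 to 147989161, with positions as in the authors' deposited table, whose genome build the sources do not state) varied little. Its lowest and highest libraries lay at 186 and 220.2 CPM, and its means were 207 ± 14.3 in WT, 206 ± 7.45 in sham and 211 ± 10.1 in RMF. Mfn1 (ENSMUSG00000027668, chromosome 3, 32583614 to 32633388) stood at 71.1, 69.98, 93.5 and 70.8 CPM in WT 1 to 4, at 72.2, 67.6 and 81.4 in sham 1, 3 and 4, and at 74.6, 70.6, 79.5 and 74.4 in RMF 1 to 4. The groups overlapped, and WT 3 was far above the other WT libraries. The Mfn1 log2 difference of sham from WT was -0.05 (SE 0.109, adjusted p = 0.851, edgeR) and 0.06 without WT 3. The 3 libraries with the most Mfn1, WT 3, sham 4 and RMF 3, were also those with the largest sums of neocortex markers, at 1084, 609 and 508 CPM. Whether the share of cortical tissue set the Mfn1 level was not tested. The ratio of Mfn2 to Mfn1 in FPKM was 2.34 in WT 3 and between 3.03 and 3.68 in the other 10 libraries.

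**Figure D3:**
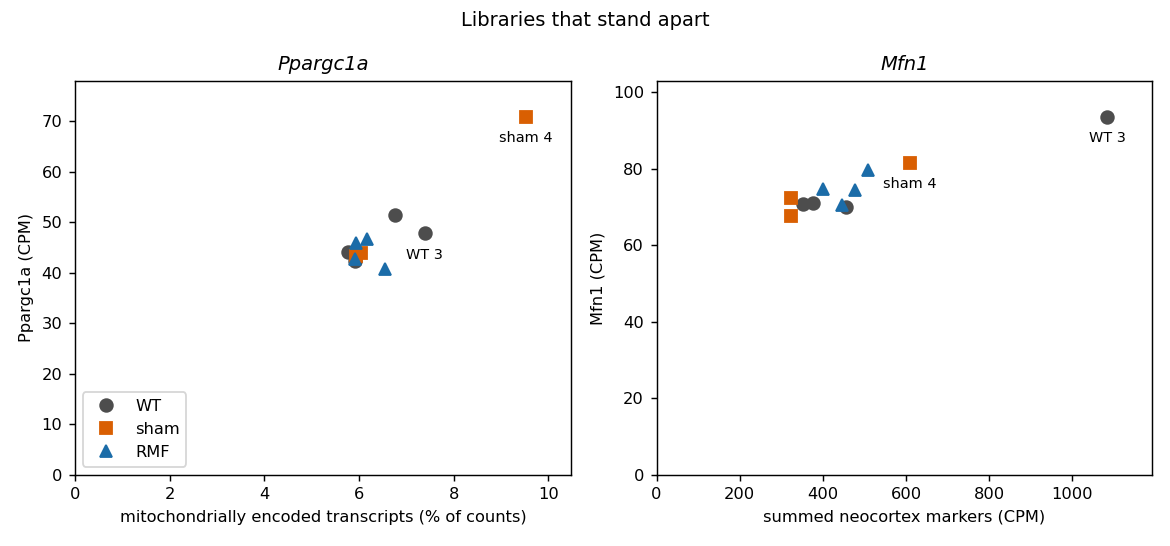
Left, Ppargc1a in CPM against the percentage of counts from mitochondrially encoded transcripts; right, Mfn1 in CPM against the summed CPM of 8 neocortex markers; 1 point per library, with axes starting at 0. Sham 4 lies alone at 9.53% and 70.9 CPM on the left, and WT 3 alone at 1084 and 93.5 CPM on the right.

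Opa1 (ENSMUSG00000038084, chromosome 16, 29398152 to 29473702), the inner-membrane fusion gene, stood at 183, 186, 165 and 185 CPM in WT 1 to 4, at 181, 191 and 212 in sham 1, 3 and 4, and at 181, 199, 183 and 172 in RMF 1 to 4. WT 3 was the lowest library and sham 4 the highest, and all 3 groups overlapped. The difference of sham from WT was 0.11 on the log2 scale (SE 0.0778, adjusted p = 0.527, edgeR), and 0.05 without sham 4. Between RMF and sham it was -0.08 (adjusted p = 0.867), and between -0.13 and -0.02 with 1 library left out, the latter without sham 4.

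Of the fission genes, Fis1 (ENSMUSG00000019054, chromosome 5, 136982129 to 136995086), which encodes a small outer-membrane adaptor, stood at 55.4, 45.3, 64.1 and 50.4 CPM in WT 1 to 4, at 46.1, 43.7 and 35.8 in sham 1, 3 and 4, and at 51.3, 46.4, 49.7 and 51.0 in RMF 1 to 4. Sham 3 and sham 4 lay below every WT library, and sham 1 lay above WT 2, so sham and WT overlapped, whereas every RMF library lay above every sham library. Fis1 was at 0.778-fold of WT in sham (log2 difference -0.36, SE 0.121, adjusted p = 0.257, edgeR) and in RMF at 1.19-fold of sham (log2 difference 0.24, SE 0.121, adjusted p = 0.733). Without sham 4 the former was -0.26 and the latter 0.14, and without WT 3 and sham 4 together the former was -0.17 (adjusted p = 0.583, an alternative with the doubted libraries left out). Groups did not overlap for 2 of the members in RMF against sham, Fis1 and Mff, and for 10.6% of all genes tested. Both margins were narrow. For Fis1 the nearest libraries were sham 1 at 46.1 and RMF 2 at 46.4 CPM. For Mff the margin was lost on rounding, at 152 CPM in sham 1, RMF 1 and RMF 4.

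Dnm1l (ENSMUSG00000022789, chromosome 16, 16130094 to 16176823), the fission GTPase, stood at 275, 292, 298 and 282 CPM in WT 1 to 4, at 286, 309 and 351 in sham 1, 3 and 4, and at 289, 283, 277 and 277 in RMF 1 to 4. The 4 RMF libraries lay close together and overlapped both other groups, and sham 4 was the highest of all. The difference of sham from WT was 0.14 (SE 0.074, adjusted p = 0.428, edgeR) and that of RMF from sham -0.16 (SE 0.074, adjusted p = 0.722), which were 0.05 and -0.08 without sham 4. The FPKM ratio of Dnm1l to Fis1 was 3.24 in sham 4, 2.05 and 2.33 in the other sham libraries, and between 1.53 and 2.12 in WT and RMF libraries.

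Mff (ENSMUSG00000026150, chromosome 1, 82702611 to 82730111), which encodes the main adaptor for the fission GTPase, stood at 152, 165, 184 and 159.5 CPM in WT 1 to 4, at 152, 150.3 and 144 in sham 1, 3 and 4, and at 152, 161, 158 and 152 in RMF 1 to 4. Every sham library lay below every WT library, by a margin lost on rounding, and Mff was the only member whose libraries did not overlap in that comparison; the same held for 12.7% of all genes tested. The difference of sham from WT was -0.16 (SE 0.0721, adjusted p = 0.387, edgeR) and -0.10 without WT 3, and that of RMF from sham 0.07 (adjusted p = 0.886). The table places another model, Gm28941, on the same strand overlapping Mff, so reads of the pair could be split by the counting.

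Among the mitophagy genes, Pink1 (ENSMUSG00000028756, chromosome 4, 138040720 to 138053618) stood at 233, 218, 257 and 221 CPM in WT 1 to 4, at 245, 192 and 171 in sham 1, 3 and 4, and at 232, 212, 227 and 244 in RMF 1 to 4. Sham 3 and sham 4 were the lowest of all 11 libraries, while sham 1 was the second highest, so the sham group overlapped both others. The table lists Mir7019 and ENSMUSG00002075257 on the same strand overlapping Pink1, so its reads too could be split. The difference of sham from WT was -0.20 (SE 0.114, adjusted p = 0.454, edgeR), and lay between -0.36 without sham 1 and -0.09 without sham 4. Between RMF and sham it was 0.18 (SE 0.114, adjusted p = 0.801), and 0.33 without sham 1 and 0.06 without sham 4.

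Of the receptor genes, Bnip3 (ENSMUSG00000078566, chromosome 7, 138492565 to 138511248), a hypoxia-inducible receptor, averaged 73.2 ± 9.52 CPM over WT, 69.7 ± 2.46 over sham and 68.8 ± 6.01 over RMF libraries, with WT 3 highest at 86.4 CPM. Fundc1 (ENSMUSG00000025040, chromosome X, 17422803 to 17438564), a receptor linked to mitophagy under low oxygen, averaged 43.4 ± 1.3, 43.7 ± 4.07 and 44.2 ± 4.62 CPM, with its highest value, 51.1 CPM, in RMF 1 and its lowest, 39.0, in sham 3. The groups overlapped for both genes. For sham against WT the 95% confidence interval ran from 0.814- to 1.11-fold for Bnip3 and from 0.873- to 1.16-fold for Fundc1.

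Ppargc1a (ENSMUSG00000029167, chromosome 5, 51611592 to 51725046), the coactivator gene of mitochondrial biogenesis, stood at 42.3, 51.4, 47.8 and 44.2 CPM in WT 1 to 4, at 43.3, 43.9 and 70.9 in sham 1, 3 and 4, and at 40.7, 46.8, 46.0 and 42.7 in RMF 1 to 4. A single library, sham 4, lay above all others, and the other 10 overlapped. The difference of sham from WT was 0.18 (SE 0.157, adjusted p = 0.614, edgeR) and turned to -0.09 without sham 4. That of RMF from sham was -0.26 (SE 0.157, adjusted p = 0.786) and turned to 0.01 without it. The same library had the largest share of mitochondrially encoded transcripts, 9.53% of counts, and the part of that share in the Ppargc1a level was not tested. The table lists 3 further models on the same strand overlapping Ppargc1a, namely Gm42614, Gm42615 and Gm43605.

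Within groups, Ppargc1a was the most variable member and Mff the least, but the Ppargc1a spread leaned on sham 4. That library lay 0.46 above its group mean on the log2 scale, with sham 1 and sham 3 at -0.24 and -0.22. Ppargc1a deviations in WT and RMF libraries lay between -0.13 and 0.15. The rank of Ppargc1a without sham 4 was not computed. The SD of log2 CPM around the group means was 0.222 for Ppargc1a, 0.165 for Fis1, 0.156 for Pink1, 0.147 for Mfn1 and 0.137 for Bnip3. It was 0.114 for Fundc1, 0.0919 for Opa1, 0.0827 for Dnm1l, 0.0806 for Mfn2 and 0.0794 for Mff, against a median of 0.175 over all genes tested. Of all genes tested 65.4% varied less than Ppargc1a and 6.9% less than Mff.

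From library to library, Opa1 ran opposite to Pink1 and Fis1. Group means were subtracted from log2 CPM, and the 45 pairs of members were compared over 11 libraries by exact permutation of libraries within groups, 3456 rearrangements, two-sided, with Benjamini-Hochberg adjustment over the pairs. For Opa1 and Pink1, Pearson's r was -0.89 (exact p = 0.000289, the smallest these permutations can give, adjusted p = 0.013) and Spearman's rho -0.93 (exact p = 0.000289, adjusted p = 0.013). For Opa1 and Fis1, r was -0.86 (exact p = 0.000868, adjusted p = 0.0195) and rho -0.88 (exact p = 0.00116, adjusted p = 0.026). These 2 pairs passed among the 45. Without RMF 2 and sham 4, the libraries farthest from the median of Opa1, r was -0.85 with Pink1 and -0.83 with Fis1. Leaving out sham 4 alone gave -0.83 and -0.79, and leaving out WT 3 alone gave -0.88 and -0.79. Pink1 and Fis1 ran together, with r of 0.82 (exact p = 0.00405, adjusted p = 0.0608) and rho of 0.84 (exact p = 0.00463, adjusted p = 0.0694), which missed the threshold.

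Few of the genes tested ran as strongly opposite to Opa1, though the relation was not particular to Pink1 and Fis1. Both pairs were picked from 45 for their strength, and pairs of genes in general were not surveyed. Of all genes tested, 0.319% had an r with Opa1 at or below that of Pink1, and 0.686% at or below that of Fis1. Opa1 has long transcripts and the others short ones: the counts per FPKM, which scale with length, were 1.93 times those of the median gene for Opa1, 0.656 times for Pink1 and 0.421 times for Fis1. The part of transcript length in the relation was not tested. The FPKM ratio of Opa1 to Pink1 was highest in sham 4, at 0.421, and lowest in WT 3, at 0.219.

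**Figure D4:**
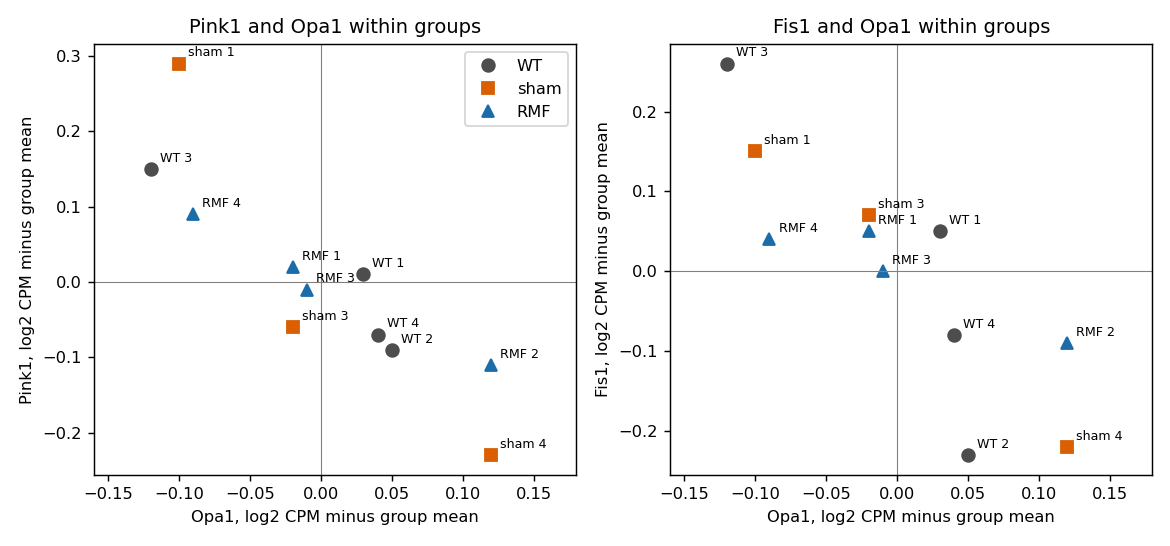
Log2 CPM of Pink1 (left) and Fis1 (right) against that of Opa1, each minus its group mean, with 1 labelled point per library of WT, sham and RMF. Libraries high in Opa1, such as sham 4 and RMF 2, are low in both other genes, and r is -0.89 for Pink1 and -0.86 for Fis1.

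The genes whose deviations from group means were most like those of a member over the 11 libraries were listed by Pearson's r, as a measure of likeness with no test. For Ppargc1a they were mt-Nd4l, a complex I subunit gene of the mitochondrial genome, with r of 0.98, the pseudogene Gm10222 with 0.98, and Prepl with 0.97. Without sham 4 these were 0.89, 0.89 and 0.84. For Dnm1l they were the pseudogene Gm28661 and mt-Co2, a mitochondrially encoded subunit of cytochrome c oxidase, with 0.97 each, and Dennd4a with 0.96, or 0.94, 0.93 and 0.88 without sham 4. For Fis1 the most alike was Ndufa11, a nuclear complex I gene, at 0.97, and for Opa1 it was Tasor2 at 0.98, with the dendritic microtubule gene Map2 at 0.95. For Pink1 it was the processed pseudogene Gm13436 at 0.99, for Mfn1 Tox3 at 0.98, for Mfn2 Mmp16 at 0.98, for Mff Atp6v1c1 at 0.96, for Bnip3 Paip1 at 0.98 and for Fundc1 Ppid at 0.94.

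Other genes of the same processes were counted from 6 lists, each of which includes the members that belong to it. By edgeR 0 genes of any list passed the adjusted threshold in any of the 4 comparisons. For sham against WT, unadjusted p lay below 0.05 for 1 of 18 tested fusion and inner-membrane genes, 2 of 14 fission genes, 1 of 23 genes of the PINK1 pathway and its adaptors, 3 of 13 receptor mitophagy genes, 4 of 19 biogenesis genes and 0 of 10 axonal transport genes, beside 13.2% of all genes. The median log2 differences of these lists were -0.04, -0.01, -0.08, -0.07, 0.01 and 0.07. For RMF against sham the numbers were 0, 3, 2, 1, 2 and 0, beside 6.89% of all genes, and the medians 0.04, -0.01, 0.01, 0.04, -0.05 and -0.04.

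The gene with the smallest p between RMF and sham among the fission genes was Mul1, a mitochondrial ubiquitin ligase, at 27.6 ± 3.68 CPM in sham, 34.7 ± 1.62 in RMF and 33.9 ± 2.88 in WT (1.26-fold of sham, adjusted p = 0.719, edgeR). Mul1 libraries did not overlap between sham and either other group. The same held for 12.7% of all genes tested in sham against WT and for 10.6% in RMF against sham. Tomm7, a subunit of the outer-membrane import pore that stabilises PINK1, stood at 3.45 ± 0.202 CPM in sham, 5.1 ± 0.6 in RMF and 4.36 ± 0.965 in WT (1.48-fold of sham, adjusted p = 0.719). Sirt3, the mitochondrial deacetylase, stood at 31.0 ± 5.11 in sham, 36.8 ± 2.2 in RMF and 39.1 ± 2.93 CPM in WT (0.793-fold of WT in sham, adjusted p = 0.262). Gabpa, which encodes the DNA-binding subunit of GABP, stood at 37.2 ± 3.81 in WT and 45.7 ± 2.79 CPM in sham (1.23-fold, adjusted p = 0.239).

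Fkbp8, a mitophagy receptor gene, had WT libraries that lay apart from all APP/PS1 libraries, at 246 ± 7.49 CPM against 211 ± 22.7 for sham and 227 ± 6.41 for RMF (APP/PS1 against WT 0.889-fold, adjusted p = 0.312, edgeR), where 3.2% of all genes had groups that did not overlap. Yme1l1, a protease that cleaves OPA1, stood at 105 ± 10.5 CPM in WT and 125 ± 4.85 in sham (1.20-fold, adjusted p = 0.288), and Tax1bp1, an autophagy adaptor, at 160.2 ± 3.25 and 179 ± 8.46 (1.12-fold, adjusted p = 0.288). Calcoco1, another autophagy adaptor, stood at 98.7 ± 2.57 in WT, 97.2 ± 2.83 in sham and 89.0 ± 2.84 CPM in RMF, below both other groups in every library (RMF against WT 0.901-fold, adjusted p = 0.385), where groups did not overlap for 6.75% of all genes in RMF against WT and 10.6% in RMF against sham. Kif5b, a kinesin heavy chain gene, led the transport list at 286 ± 44.1, 358 ± 64.7 and 347 ± 50.6 CPM in WT, sham and RMF (sham against WT 1.25-fold, adjusted p = 0.396).

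The same rule named further genes whose differences also missed the threshold. For sham against WT the log2 difference was -0.18 for Stoml2, 0.16 for Mief1, which encodes a receptor of the fission GTPase, and -0.16 for Nipsnap2. For RMF against sham it was -0.16 for Slc25a46, 0.16 for Nipsnap2, 0.22 for Polrmt, the mitochondrial RNA polymerase gene, and -0.15 for Armcx3. For RMF against WT it was -0.14 for Stoml2, 0.13 for Mief2, 0.22 for Optn, an autophagy adaptor gene, and -0.22 for Csnk2b. Their adjusted p-values in edgeR ran from 0.368, for Nipsnap2 in sham against WT, to 0.778, for Mief2.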

How the data were processed

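Hippocampal RNA of 4 WT, 3 sham and 4 RMF mice or pools was measured. Poly(A) RNA was taken with oligo(dT) beads out of 5 µg of total RNA, read as 150 bp pairs and trimmed with Cutadapt 1.9, per the labels' protocols. HISAT2 2.0.4, StringTie 1.3.4d, edgeR and a human build are named in the submitters' processing notes, while the gene identifiers are mouse. None of the table's 10 member starts lay within 1000 bases of that of GRCm38.p6, so table positions and RefSeq windows belong to different builds. The sources used here give neither the counting tool nor its use of strand, so overlapping models are uncertain.

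The deposited table pairs raw counts, as whole numbers, with FPKM computed by the authors. The table also holds 2 value columns named for a library Sham2, which is not among the samples, and these were not used. Genes reaching an FPKM of 1 in 3 or more libraries entered edgeR 4.0.16 (R 4.3.3), quasi-likelihood, TMM, 1 fit of 11 libraries and 3 groups, with Benjamini-Hochberg adjustment over 14428 genes and a threshold of 0.05. CPM are relative to TMM-scaled counts of tested genes. SE and 95% confidence intervals come from the F statistic. On data simulated for sham against WT, the fit recovered 0.5% of 1.25-fold, 50.5% of 1.5-fold and 100% of 2-fold changes. Every simulated gene had the same spread, the median over the genes tested. For a gene of that spread, differences near 1.25-fold would thus seldom be called. All members but Ppargc1a varied less within groups than the median gene, and recovery at their own spread was not simulated. Alternatives used DESeq2 1.42.0, limma 3.58.1 and other filters and libraries. The members and lists were chosen with earlier results of these data known. The named genes are the members and, per list and comparison, the gene of smallest p and those of largest and smallest difference without overlap.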

Additional observations from a re-analysis of the deposited data

Results flagged for a closer look

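In the groups of 4 libraries, a value was singled out when its gap to the nearest other library took an unusually large part of the group's range by Dixon's criterion, which chance meets in about 1 of 20 groups. The criterion was applied to 20 groups, the WT and RMF libraries of each gene, and 2 met it, both in WT 3. Mfn1 stood at 93.5 CPM in WT 3 against 69.98 to 71.1 in the other WT libraries. Opa1 stood at 165 CPM in WT 3 against 183 to 186 in the others. WT 3 also had the largest sum of neocortex markers, 1084 CPM, and the smallest of dentate granule markers, 319.8 CPM; their part in both values was not tested.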

How the results depend on the processing

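Under every alternative run, 0 of the 10 genes passed the adjusted threshold in the 4 comparisons; the smallest adjusted p was 0.149 for sham against WT, 0.282 for RMF against sham, 0.587 for RMF against WT and 0.253 for APP/PS1 against WT. Of 830 log2 differences recomputed, 58 turned direction and 772 did not, with those that rounded to 0 counted among the latter.

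The number of genes called among all tested, in the order sham against WT, RMF against WT and APP/PS1 against WT, was 134, 172 and 206, and 345, 315 and 410 by DESeq2, 304, 354 and 413 without a filter on low values, 363, 378 and 464 with a minimum FPKM of 0.1, and 252, 308 and 320 with library weights. It was 76 for sham against WT with only these groups fitted and 260 for RMF against WT without WT 3 and sham 4. With the replicate number as a block it was 87, 112 and 126. Same-numbered libraries had correlations of deviations between -0.34 and 0.27. Differently numbered libraries were not set beside them, so whether the number marks a shared batch was not tested. For RMF against sham the number of genes called was 0, and 16 by DESeq2. Leaving out 1 library gave 89 (without sham 3) to 153, 0 to 1 (1 without sham 1), 121 to 203 and 141 to 215 genes for sham against WT, RMF against sham, RMF against WT and APP/PS1 against WT.

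Directions turned as follows, and the cause was not tested. By limma on log2(FPKM + 1) and log2(FPKM + 0.1), sham against WT was -0.04 and -0.04 for Fundc1, RMF against sham 0.02 and 0.03 for Bnip3, and APP/PS1 against WT -0.01 and -0.01 for both Mfn2 and Fundc1. With library weights, sham against WT was -0.08 for Fundc1 and -0.02 for Ppargc1a, RMF against sham 0.01 for Bnip3, RMF against WT 0.07 for Mfn1, 0.01 for Pink1 and -0.02 for Fundc1, and APP/PS1 against WT 0.02 for Mfn1, -0.01 for Mfn2, -0.05 for Fundc1 and -0.03 for Ppargc1a. Without WT 3 and sham 4, sham against WT was -0.03 for Fundc1 and -0.08 for Ppargc1a, RMF against sham 0.01 for Ppargc1a, RMF against WT 0.08 for Mfn1, -0.02 for Mfn2, -0.01 for Opa1 and 0.03 for Pink1, and APP/PS1 against WT 0.03 for Mfn1, -0.04 for Mfn2, -0.01 for Fundc1 and -0.07 for Ppargc1a.

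Leaving out 1 library turned the direction of some differences, the largest being Ppargc1a in RMF against sham, at -0.26 with all libraries. For sham against WT the ranges were -0.13 to 0.06 for Mfn1, -0.05 to 0.02 for Mfn2, -0.12 to 0.02 for Bnip3, -0.04 to 0.08 for Fundc1 and -0.09 to 0.31 for Ppargc1a. For RMF against sham they were -0.04 to 0.09 for Mfn1, -0.06 to 0.03 for Bnip3, -0.06 to 0.07 for Fundc1 and -0.38 to 0.01 for Ppargc1a. For RMF against WT they were -0.07 to 0.08 for Mfn1, -0.02 to 0.07 for Mfn2, -0.01 to 0.06 for Opa1, -0.05 to 0.03 for Pink1 and -0.05 to 0.06 for Fundc1. For APP/PS1 against WT they were -0.08 to 0.07 for Mfn1, -0.04 to 0.03 for Mfn2, -0.13 to 0.01 for Bnip3, -0.02 to 0.06 for Fundc1 and -0.09 to 0.12 for Ppargc1a.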
